A study of Mus musculus with 7 samples.

Results

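The 9 collagen genes Col4a1, Col4a2, Col4a5, Col6a1, Col6a2, Col6a3, Col8a1, Col15a1 and Col18a1 encode chains of basement membranes and of the fine networks around cells. They were taken by gene symbol from 42689 annotated genes, and all 9 passed the filter on low counts. RNA was sequenced in 7 libraries of hindlimb tendon from mice of C57BL/6 background, in a study of TAK1 signalling and heterotopic ossification, the growth of bone in soft tissue. The tenotomy group (2 libraries) was the site of a cut Achilles tendon, 3 weeks after the cut and a burn that covered 30% of the body surface, made with a block at 60 °C in 18 s. The contralateral group (3 libraries) was the other, uncut hindlimb of mice with the same burn and tenotomy, also at 3 weeks. The uninjured group (2 libraries) came from mice with neither burn nor tenotomy. Burn and tenotomy were given together, so the contralateral limb was uncut but belonged to a burned animal. The labels give no age, and do not say whether libraries of a group came from separate animals or pools. The p-values below therefore measure the spread between these libraries, which may be technical.

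Type IV collagen is the network-forming collagen of basement membranes, the thin sheets under endothelium and around muscle fibres, fat cells and Schwann cells. The chains of Col4a1 and Col4a2 join in the most widespread type IV network, and the chain of Col4a5 belongs to a more restricted one. Type VI collagen is assembled from the chains of Col6a1, Col6a2 and Col6a3 into beaded filaments, which in tendon surround the cells. Type VIII forms short-chain networks, and types XV and XVIII are basement membrane collagens that carry sugar side chains and whose ends can be released as the fragments known as restin and endostatin.

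Col4a1 and Col4a2 start head to head, and their first exons share 22 bases on opposite strands. That shared stretch is shown because both genes read away from it. It is given on the + strand of GRCm38.p6, the RefSeq assembly of these sequences, at chr8:11312805-11312826, and the capitals mark a GC box (GGGCGG).
Col4a1 and Col4a2 shared start: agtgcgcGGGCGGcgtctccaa

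The sequences before the starts of the 3 type VI genes and of Col8a1 are shown because these genes had the 4 largest differences between the tenotomy and the contralateral libraries. Each runs 5′ to 3′ on the − strand of GRCm38.p6 and leaves out annotated exons. The Col6a1 stretch, at chr10:76726169-76726294, is short because RefSeq places that start 124 bases inside the gene as GENCODE annotates it. The others are the 250 bases before the start, at chr10:76623631-76623880 for Col6a2, chr1:90843972-90844221 for Col6a3 and chr16:57754738-57754987 for Col8a1. Capitals mark matches on either strand to 5 motifs. The GC box was searched for as GGGCGG, the TATA box by the letters TATAAA, and the CCAAT box by the letters of its name. The AP-1 site was searched for as TGANTCA and the Smad box by the letters CAGACA, and no match overlaps another in the printed stretches.
Col6a1: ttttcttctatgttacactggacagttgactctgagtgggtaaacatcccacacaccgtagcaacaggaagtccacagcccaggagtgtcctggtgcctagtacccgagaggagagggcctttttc
Col6a2: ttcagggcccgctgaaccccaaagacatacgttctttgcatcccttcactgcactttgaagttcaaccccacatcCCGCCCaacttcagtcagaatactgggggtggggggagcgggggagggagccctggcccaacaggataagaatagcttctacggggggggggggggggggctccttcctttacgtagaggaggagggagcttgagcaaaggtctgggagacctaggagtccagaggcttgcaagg
Col6a3: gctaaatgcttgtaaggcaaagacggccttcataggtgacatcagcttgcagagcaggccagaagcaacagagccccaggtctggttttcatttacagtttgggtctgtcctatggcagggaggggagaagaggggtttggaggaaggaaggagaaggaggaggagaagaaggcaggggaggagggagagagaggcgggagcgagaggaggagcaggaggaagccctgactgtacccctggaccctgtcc
Col8a1: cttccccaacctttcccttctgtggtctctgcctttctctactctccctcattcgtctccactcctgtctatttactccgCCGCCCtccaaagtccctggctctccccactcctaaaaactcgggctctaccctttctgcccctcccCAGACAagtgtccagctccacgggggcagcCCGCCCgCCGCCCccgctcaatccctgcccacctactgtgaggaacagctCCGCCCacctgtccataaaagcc

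The Col8a1 window held 4 GC boxes and 1 Smad box, the Col6a2 window 1 GC box, and the printed Col6a1 and Col6a3 stretches none of these motifs. Among 32817 promoter windows of 250 bases, 32.7% held a GC box, 33.8% a CCAAT box, 17.1% a Smad box, 12.4% a TATA box and 6.75% an AP-1 site. The full 250 bases before Col6a1 held 1 AP-1 site, in the part not printed. A GC box also lay before Col4a2, Col4a5 and Col18a1, and a CCAAT box before Col4a1, Col4a2, Col4a5 and Col18a1. No window of the 9 genes held a TATA box. None of the 5 motifs lay in the windows of all 3 type VI genes. These matches describe letters only.

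Estimated counts summed to 25927171 to 36725106 per library. The 5 most abundant features took 76.41% to 81.40% of them, which left 4934057 to 8375626 counts for all other genes. The 2 uninjured libraries stood apart from each other. Distances were taken over log2 CPM (CPM, a gene's count relative to its library's TMM-scaled total). Uninjured replicate 1 lay 59.743 and 61.503 away from the tenotomy libraries but 114.12 from uninjured replicate 2. Uninjured replicate 2 lay 64.612 to 67.533 away from the contralateral group and 121.23 or more from the tenotomy group. The distance between 2 libraries does not say which of them is unlike its group. An exchange of labels and a difference in tissue composition cannot be told apart for either library, so what their values stand for is uncertain. Comparisons with the uninjured group are therefore given with and without each of its libraries. Marker lists of several cell types also differed between libraries, as given further on. Of the skeletal muscle markers, 8 of 8 were called lower at the tenotomy site than in the contralateral tendon, beside 15.3% of all genes. The edgeR test used is given below. Their summed level was 7050 to 9098 CPM in the contralateral libraries and 716 and 718 CPM in the tenotomy libraries. It was 891 CPM in uninjured replicate 1 and 6543 CPM in uninjured replicate 2. The tendon markers Scx, Tnmd, Mkx, Thbs4, Fmod and Col1a1 were detected in every group. They summed to 522 to 724, 2874 and 2889, 2648 and 2435 CPM in the same order. Col1a1 made up most of the tenotomy sums, since each of the other markers was at most 167 CPM there. In uninjured replicate 2, Tnmd (11.8 CPM) and Thbs4 (70.8 CPM) were nearer the contralateral values (5.41 to 9.07 and 66.7 to 95.9 CPM). Both were higher at the tenotomy site (28.5 and 27.3, 167 and 166 CPM). Mkx (3.64 CPM) was above both tenotomy libraries (2.88 and 3.20 CPM). In such bulk samples, fewer cells of a type and less RNA per cell cannot be told apart, and the part of tissue composition in the results below was not tested.

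Between the tenotomy site and the contralateral tendon, 8 of the 9 collagen genes rose and 0 fell. The type VI chains were 5.5- to 6.4-fold higher, Col8a1 9.63-fold, Col18a1 3.54-fold and Col15a1 2.39-fold. The type IV pair Col4a1 and Col4a2 was 1.57- and 1.5-fold higher, and Col4a5 did not pass the test. The test was edgeR's quasi-likelihood test with Benjamini-Hochberg adjustment over all 16068 genes tested, and a gene was called at an adjusted p under 0.05. Of all genes tested, 28.9% were called, 13.5% as higher and 15.3% as lower. The median log2 fold change of the 9 genes was 1.82, and that of all genes was -0.001. The values of the tenotomy and contralateral libraries did not overlap for any of the 9 genes, and the same held for 63.6% of all genes tested. In a fit of only the 5 libraries compared, the same number of members, 8, was called beside 46.1% of all genes. Without any 1 contralateral library, 0 of the 9 genes and 0 genes in all were called. In those edgeR fits 8 of the 9 had an unadjusted p under 0.05, as did 5413 to 6149 of the 15701 to 16061 genes tested. No call held without a tenotomy library either, which leaves 1 library in that group. Without uninjured replicate 1 or without replicate 2, 8 of 9 were called beside 42.9% and 43.5% of all genes.

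**Figure D1:**
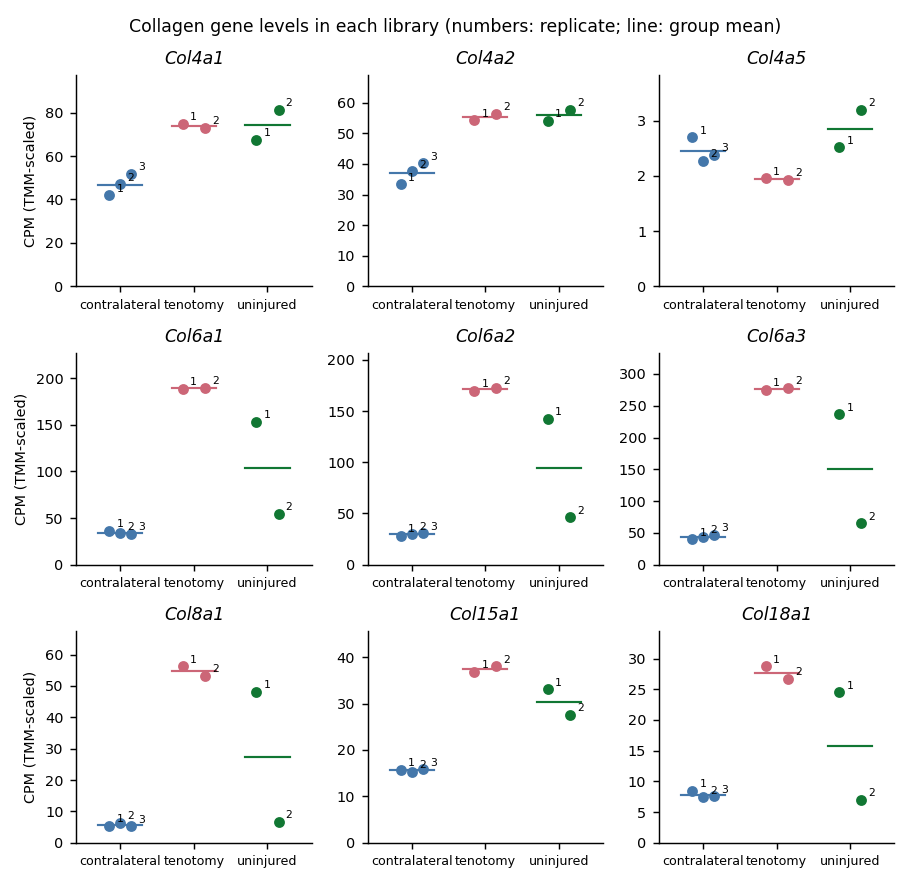
CPM of the 9 collagen genes in each of the 7 libraries, 1 panel per gene with its own vertical axis from 0, numbers giving the replicate and lines the group means. The type VI genes, Col8a1 and Col18a1 are high in both tenotomy libraries and in uninjured replicate 1, and lower in uninjured replicate 2. For Col4a1, Col4a2 and Col15a1 both uninjured libraries are nearer the tenotomy than the contralateral values. The 3 contralateral libraries are the lowest for all genes but Col4a5 and Col18a1.

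The 3 type VI chains are partners in 1 filament. Col6a1 (ENSMUSG00000001119.7, chromosome 10, 76708792 to 76726168, − strand, GRCm38), the chain α1(VI), was at 36.3, 33.4 and 33.2 CPM in contralateral replicates 1 to 3, at 188.9 and 189.6 CPM in the tenotomy libraries, and at 153 and 54.7 CPM in uninjured replicates 1 and 2. Both tenotomy libraries lay far above the contralateral range, and both uninjured libraries lay in the gap between these groups, replicate 1 nearer the tenotomy and replicate 2 nearer the contralateral values. The log2 fold change at the tenotomy site was 2.46 (SE 0.38, edgeR adjusted p = 0.0167).

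Col6a2 (ENSMUSG00000020241.13, chromosome 10, 76595762 to 76623630, − strand), the chain α2(VI), lies 85161 bases from Col6a1. Its levels were 28.2, 30.1 and 30.6 CPM in the contralateral libraries, 170.1 and 172.5 CPM at the tenotomy site, and 142 and 46.0 CPM in the uninjured libraries. It differed by 2.53 on the log2 scale (SE of 0.41), nearly as much as its neighbour, with an edgeR adjusted p of 0.0167.

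Col6a3 (ENSMUSG00000048126.16, chromosome 1, 90765923 to 90843971, − strand) encodes the long chain α3(VI). It was at 39.5, 43.5 and 47.0 CPM in the contralateral libraries, 275 and 278 CPM at the tenotomy site, and 237 and 64.9 CPM in the uninjured libraries. Its rise in log2 units was 2.67 (SE 0.46, edgeR adjusted p = 0.0167). Over the 7 libraries, log2 CPM of the 3 chains correlated at Pearson r = 0.9948 to 0.9992, a description over libraries that differ mainly between groups.

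Col8a1 (ENSMUSG00000068196.5, chromosome 16, 57624258 to 57754737, − strand), the chain α1(VIII), showed the largest ratio among the 9 genes. Its estimated counts were 145, 224 and 169 in the contralateral libraries, 2069 and 1597 in the tenotomy libraries, and 1340 and 196 in the uninjured libraries. In CPM these were 5.44, 6.37 and 5.23, then 56.3 and 53.2, then 48.2 and 6.74. The gene was thus low in 4 libraries and high in 3, with uninjured replicate 1 among the high ones. The log2 fold change between tenotomy and contralateral was 3.27 (SE 0.66, edgeR adjusted p = 0.0167).

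Col4a1 (ENSMUSG00000031502.11, chromosome 8, 11198423 to 11312826, − strand) encodes α1(IV). Its levels were 41.9, 47.0 and 51.7 CPM in the contralateral libraries, 74.7 and 72.9 CPM at the tenotomy site, and 67.5 and 81.3 CPM in the uninjured libraries. The 3 contralateral libraries were the lowest of the 7, and the tenotomy libraries lay between the uninjured ones. The log2 fold change between tenotomy and contralateral was 0.65 (SE 0.18, edgeR adjusted p = 0.0344).

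Col4a2 (ENSMUSG00000031503.13, chromosome 8, 11312805 to 11449287, + strand), the partner chain α2(IV), was at 33.4, 37.6 and 40.2 CPM in the contralateral libraries, 54.3 and 56.5 CPM at the tenotomy site, and 54.1 and 57.7 CPM in the uninjured libraries. The order of the groups was that of Col4a1, and log2 CPM of both genes correlated at r = 0.9886 over the 7 libraries. Its rise at the tenotomy site in log2 units was 0.58 (SE 0.17, edgeR adjusted p = 0.0374). Neither type IV call held when length-scaled TPM replaced the counts (adjusted p = 0.0506 for Col4a1 and 0.0516 for Col4a2) or without the filter on low counts (0.0636 and 0.0914).

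Col4a5 (ENSMUSG00000031274.16, chromosome X, 141475385 to 141689234, + strand), the α5(IV) chain, was rare, with 58 to 93 estimated counts per library. It was at 2.70, 2.28 and 2.38 CPM in the contralateral libraries, 1.96 and 1.93 CPM at the tenotomy site, and 2.52 and 3.20 CPM in the uninjured libraries. Both tenotomy values were the lowest of the 7. The log2 difference of -0.33 (SE 0.17) had an edgeR adjusted p of 0.187 and did not pass.

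Col15a1 (ENSMUSG00000028339.17, chromosome 4, 47208161 to 47313167, + strand), the α1(XV) chain, was at 15.7, 15.3 and 15.9 CPM in the contralateral libraries, 36.8 and 38.0 CPM at the tenotomy site, and 33.1 and 27.6 CPM in the uninjured libraries. Here both uninjured libraries lay closer to the tenotomy than to the contralateral values. The log2 fold change between tenotomy and contralateral was 1.26 (SE 0.16, edgeR adjusted p = 0.0167).

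Col18a1 (ENSMUSG00000001435.15, chromosome 10, 77052178 to 77166548, − strand), the α1(XVIII) chain, is the closest relative of Col15a1 in the list. It was at 8.51, 7.40 and 7.58 CPM in the contralateral libraries, 28.8 and 26.7 CPM at the tenotomy site, and 24.5 and 7.01 CPM in the uninjured libraries. Uninjured replicate 2 was below all contralateral libraries, unlike for Col15a1. At the tenotomy site the log2 fold change was 1.82 (SE 0.43, edgeR adjusted p = 0.0209), and in a test against a 1.5-fold change its adjusted p was 0.0560. Of the genes that overlap the 9 on the map, Col4a1 and Col4a2 themselves apart, the 7 matched to transcripts had at most 37 estimated counts in any library, and Gm44716 and Gm7775 were not analysed here.

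**Figure D2:**
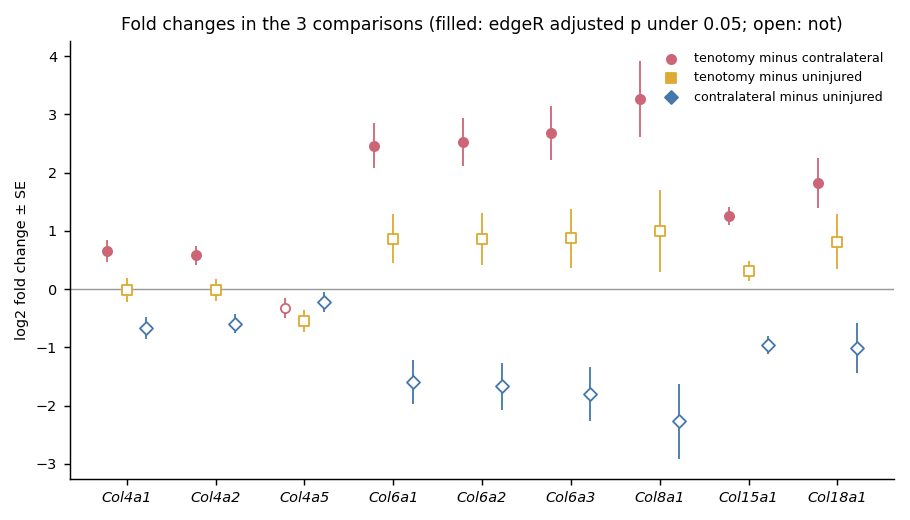
Log2 fold change of each gene, with its standard error, in the 3 comparisons; filled symbols passed an edgeR adjusted p of 0.05. The 8 filled symbols all belong to tenotomy minus contralateral, where Col8a1 reaches 3.27 and Col4a5 is the 1 open symbol at -0.33.

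The other comparisons both rest on the uninjured group. Between the tenotomy site and the uninjured tendon, 0 of the 9 genes were called beside 0.0% of all genes. An unadjusted p under 0.05 with edgeR was reached by 1742 of the 16068 genes tested, 1 of them a member (Col4a5). DESeq2 called 144 genes there, 4.83% of the 2984 to which it gave an adjusted p, and 0 members. The log2 differences were 0.87, 0.86 and 0.87 for Col6a1, Col6a2 and Col6a3 and 1.00 for Col8a1, and 0.82 for Col18a1. For Col15a1 the difference was 0.30. Col4a1 and Col4a2 differed by -0.01 and -0.01 (SE 0.20 and 0.19), values whose sign changed with the scaling (0.03 and 0.03 with upper quartile factors) and with the library left out. For Col4a5 the difference was -0.55 (SE 0.19, edgeR adjusted p = 0.449).

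The uninjured libraries differed from each other. Without uninjured replicate 1, 7 of the 9 genes were called between tenotomy and uninjured beside 25.1% of all genes. The log2 differences were then 1.79, 1.90 and 2.09 for Col6a1, Col6a2 and Col6a3 and 3.03 for Col8a1. They were 1.99 for Col18a1 and 0.44 for Col15a1, and Col4a5 was the 1 gene that was lower (-0.71, edgeR adjusted p = 0.0210). Col4a1 and Col4a2 did not pass (-0.14 and -0.06). Without uninjured replicate 2, 0 of the 9 were called beside 0.083% of all genes. In both of these fits the remaining uninjured library was taken to vary like the libraries of the other groups.

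Between the contralateral and the uninjured tendon, 0 of the 9 genes were called beside 0.0% of all genes with edgeR. An unadjusted p under 0.05 was reached by 3093 of the 16068 genes tested, 8 of the 9 members among them. All 9 log2 differences were negative, from -2.27 for Col8a1 to -0.22 for Col4a5, and 7 of the 9 genes had no overlap between groups, against 35.5% of all genes tested. The smallest adjusted p was 0.203, for Col15a1 (-0.96, SE 0.16). DESeq2 called 7 members beside 3.49% of the genes to which it gave an adjusted p, all lower in the contralateral tendon, and Col4a5 and Col18a1 were the exceptions. With the series of the title numbers as a covariate, edgeR called 6 members lower in the contralateral tendon, all but the 3 type IV genes, beside 15.4% of all genes. In that fit uninjured replicate 2 is the 1 library of its series, and no series holds both contralateral and uninjured libraries. The difference therefore runs through the tenotomy libraries. It joins the contralateral difference from tenotomy replicate 1 to the difference of tenotomy replicate 2 from uninjured replicate 1. These calls thus largely restate tenotomy against contralateral and are no direct comparison of the 2 groups. The tenotomy and uninjured comparisons share libraries with the contralateral ones, so their values are set side by side here and not counted as separate evidence.

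The genes fell into different patterns across the uninjured libraries. On the log2 scale, uninjured replicate 1 was above the contralateral mean by 2.16 for Col6a1, 2.26 for Col6a2, 2.45 for Col6a3, 3.08 for Col8a1 and 1.64 for Col18a1. Uninjured replicate 2 differed from that mean by 0.67, 0.64, 0.59, 0.25 and -0.16 for the same genes. The 3 type VI genes were thus above the contralateral mean in both libraries, but far more so in replicate 1. For Col4a1, Col4a2 and Col15a1 both libraries were above it by more similar amounts. These were 0.53 and 0.80, 0.55 and 0.64, and 1.08 and 0.82. The contralateral libraries themselves spanned 0.30, 0.27 and 0.05 for Col4a1, Col4a2 and Col15a1. They spanned 0.13, 0.12 and 0.25 for Col6a1, Col6a2 and Col6a3. Without uninjured replicate 1, the lower level in the contralateral tendon was called for Col4a1 (-0.80, edgeR adjusted p = 0.0251), Col15a1 (-0.82, adjusted p = 0.0108), Col6a1 (-0.68) and Col6a2 (-0.64), 4 of 9 beside 0.617% of all genes. Without uninjured replicate 2, it was called for 8 of 9, all but Col4a5, beside 32.0% of all genes. Col4a1, Col6a1, Col6a2 and Col15a1 were thus lower in the contralateral tendon with either library left out. The sign of the Col18a1 difference changed, from 0.15 without uninjured replicate 1 to -1.65 without uninjured replicate 2.

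**Figure D3:**
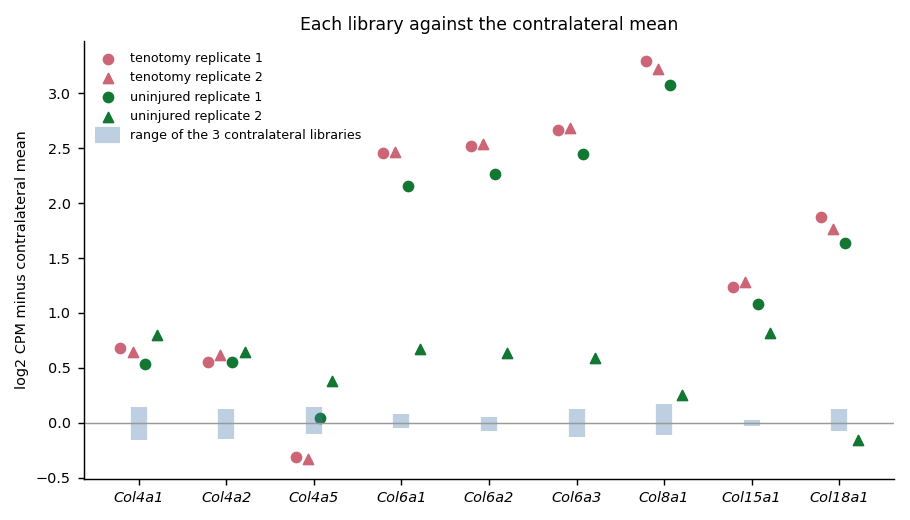
Log2 CPM of each tenotomy and uninjured library minus the mean of the 3 contralateral libraries, with bars for the range of those 3. Uninjured replicate 1 (green circles) lies by the tenotomy libraries for most genes. Uninjured replicate 2 (green triangles) is near the contralateral range for Col8a1 (0.25) and Col18a1 (-0.16). It is well above that range for Col4a1 (0.80), Col15a1 (0.82) and the type VI genes (0.67 for Col6a1).

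The numbers in the sample titles fall in 3 series, which no label calls a batch. The first holds tenotomy replicate 1 with all 3 contralateral libraries. The next holds uninjured replicate 1 with tenotomy replicate 2, and the last only uninjured replicate 2. Within the first series, tenotomy replicate 1 was above the contralateral mean by 2.46, 2.52 and 2.67 on the log2 scale for Col6a1, Col6a2 and Col6a3. The difference was 3.30 for Col8a1, 0.68 for Col4a1 and 0.56 for Col4a2. Each was close to its value over all libraries, which uses the same contralateral libraries and tenotomy replicate 1. Their closeness is therefore partly built in. Within the next series, tenotomy replicate 2 differed from uninjured replicate 1 by 0.06 for Col4a2 to 0.31 for Col6a1 among the 8 genes other than Col4a5, and by -0.37 for Col4a5. The last series holds 1 library and gives no such value.

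Levels of different genes were compared per length, as deposited TPM (a transcript's abundance per unit length, relative to its library) summed over protein-coding transcripts of at least 3000 bases. In the contralateral tendon the order was Col6a1 (1.26 ± 0.21 TPM, SD, n = 3), Col4a1 (1.03 ± 0.079) and Col6a2 (1.03 ± 0.13), then Col4a2 (0.816 ± 0.068), Col6a3 (0.650 ± 0.053) and Col15a1 (0.445 ± 0.052). Col18a1 (0.220 ± 0.042), Col8a1 (0.165 ± 0.035) and Col4a5 (0.0568 ± 0.010) came last. The spreads over libraries of Col6a1, Col4a1 and Col6a2 overlapped, although Col6a1 was above both others in each of the 3 libraries. Col18a1 was above Col8a1 in each of them. At the tenotomy site the 3 type VI chains led, with Col6a1 at 6.71 ± 0.54 TPM (SD, n = 2), Col6a2 at 5.89 ± 0.51 and Col6a3 at 3.92 ± 0.37. Col4a1 (1.59 ± 0.097) and Col8a1 (1.54 ± 0.061) followed within each other's spread, ahead of Col4a2 (1.19 ± 0.14), Col15a1 (1.06 ± 0.11), Col18a1 (0.772 ± 0.022) and Col4a5 (0.0423 ± 0.0032).

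The balance between the beaded filament and the basement membrane network followed from these levels. The summed type VI TPM was 1.67, 1.53 and 1.43 times the summed type IV TPM in the contralateral libraries. At the tenotomy site it was 5.86 and 5.87 times, in uninjured replicate 1 5.14 times and in uninjured replicate 2 1.45 times. Ratios between chains of 1 network varied less. The Col4a1 to Col4a2 ratio was 1.24 to 1.28 in the contralateral libraries, 1.39 and 1.29 at the tenotomy site and 1.24 and 1.40 in the uninjured libraries. The Col6a1 to Col6a2 ratio was 1.16 to 1.35, 1.15 and 1.14, and 1.09 and 1.24 in the same order. The ratio of Col6a3 to Col6a1 was 0.430 to 0.607, 0.577 and 0.589, and 0.621 and 0.482, with overlap between the groups. The Col15a1 to Col18a1 ratio was 1.82 to 2.16 in the contralateral libraries, 1.30 and 1.44 at the tenotomy site, and 1.32 and 4.31 in the uninjured libraries, where replicate 2 stood highest of all.

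Isoform shares rest on how the authors' tool divided reads between transcripts that share most exons. Col6a3 has a 10106-base transcript with 3 exons, of 600, 603 and 618 bases, that the 9001-base transcript lacks. The longer form's share of the TPM of both was 36.2%, 21.8% and 21.2% in the contralateral libraries, 38.1% and 38.7% at the tenotomy site, and 34.4% and 32.6% in the uninjured libraries. Contralateral replicate 1 lay near the tenotomy values, so the spread within that group covers much of the gap. A 476-base Col6a3 transcript took 39.2% ± 4.1 (SD, n = 3) of all Col6a3 TPM in the contralateral group and 50.1% ± 1.5 (SD, n = 2) at the tenotomy site. It held 1.86% ± 0.090 and 3.03% ± 0.023 of the counts, which is why short transcripts were left out of the levels per length.

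The 5063-base Col18a1 transcript starts at position 77166548, upstream of the 6338-base and 4791-base ones, and made up most of the TPM of these 3. Its share was 85.4%, 88.7% and 81.0% in the contralateral libraries, 98.7% and 90.9% at the tenotomy site, and 90.1% and 73.9% in the uninjured libraries. Both tenotomy libraries were above all contralateral ones, with the lower of them within the contralateral SD of the nearest. The 3949-base and 4653-base Col6a2 transcripts have different last exons, of 1050 and 2059 bases. The former held 79.1%, 84.0% and 75.4% of the TPM of both in the contralateral libraries, 88.7% and 87.6% at the tenotomy site, and 88.8% and 82.9% in the uninjured libraries.

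Other genes of the same networks were read from lists of known members. Their counts of calls stand beside 13.5% of all genes called higher at the tenotomy site and 15.3% called lower. Of 7 further chains of these collagen families, 6 were tested, and 2 rose at the tenotomy site while 0 fell. These were Col6a6, a type VI chain (1.37 to 1.61 CPM in the contralateral and 4.93 and 5.79 CPM in the tenotomy libraries, log2 fold change 1.87, edgeR adjusted p = 0.0167), and Col8a2, the partner of Col8a1 (2.47 to 3.52 and 10.7 and 10.7 CPM, log2 1.84, adjusted p = 0.0197). The list's median was 0.27. Col4a3 (log2 -1.29, adjusted p = 0.0523), Col4a4 (-0.58, 0.0728) and Col4a6 (-1.40, 0.0539), the remaining chains of the restricted type IV networks, did not pass, and neither did Col6a5 (1.13, 0.0708). Col6a4 had at most 9 counts and was not tested.

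Of 11 laminin chains, the other sheet-forming proteins of basement membranes, 10 were tested, 2 rose and 2 fell, with a median of -0.15. Over all genes tested, 13.5% were called higher and 15.3% lower, so neither count stands out. Lamb1 (log2 1.36, edgeR adjusted p = 0.0167) and Lama4 (0.91, adjusted p = 0.0174), chains of laminins found in vessels and other tissues, were higher. Lamc3 (-1.83, adjusted p = 0.0379) and Lamb3 (-1.06, adjusted p = 0.0186), the latter a chain of the epithelial laminin-332, were lower and below 1.5 CPM in every contralateral and tenotomy library. Lama1, with 0 to 2 counts per library, was not tested.

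Of 9 linkers and proteoglycans, 6 rose and 1 fell, with a median of 0.98. Sparc, a collagen-binding matrix protein, went from 171 to 217 CPM in the contralateral libraries to 668 and 669.6 CPM (log2 1.77, edgeR adjusted p = 0.0167), and was at 612 and 511 CPM in the uninjured ones. Nid2 (1.69) and Nid1 (1.13), the nidogens that bridge laminin and type IV collagen, were higher too, as were Smoc2 (0.99), Hspg2 (0.98), which encodes perlecan, and Agrn (0.74), which encodes agrin. Npnt, an integrin ligand of basement membranes, was lower (-2.55, adjusted p = 0.0167). Beyond the 3 largest rises and falls of a list, genes were named after their values were seen.

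Of 8 enzymes and chaperones that act on these chains, 6 rose and 0 fell, with a median of 1.28. Serpinh1, the collagen chaperone HSP47, rose from 13.6, 15.3 and 17.3 CPM to 59.1 and 60.6 CPM (log2 1.96, edgeR adjusted p = 0.0167). Loxl2 (1.86) and Pxdn (1.60) encode enzymes that cross-link type IV collagen, and those of Plod3 (1.32) and Colgalt1 (1.11) act on lysine residues of collagen chains. P4hb (1.24) was called higher too. Mia3 (-0.12) and P4ha1 (-0.01) did not pass. Of 15 receptors, 4 rose and 2 fell, beside 13.5% and 15.3% of all genes, with a median of 0.14. Antxr1, a receptor of type VI collagen, was at 9.67, 8.79 and 8.97 CPM in the contralateral libraries, 57.2 and 59.6 CPM at the tenotomy site, and 48.8 and 15.5 CPM in the uninjured libraries (log2 2.68, edgeR adjusted p = 0.0167). Cspg4 (1.08), whose product NG2 also binds type VI collagen, Antxr2 (0.86) and the collagen receptor Ddr2 (0.52) were higher. Bcam (-1.58) and Itga7 (-0.84), both laminin receptors, were lower. In all 5 lists, 0 genes were called in the other 2 comparisons by edgeR, which called 0 genes in all there.

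**Figure D4:**
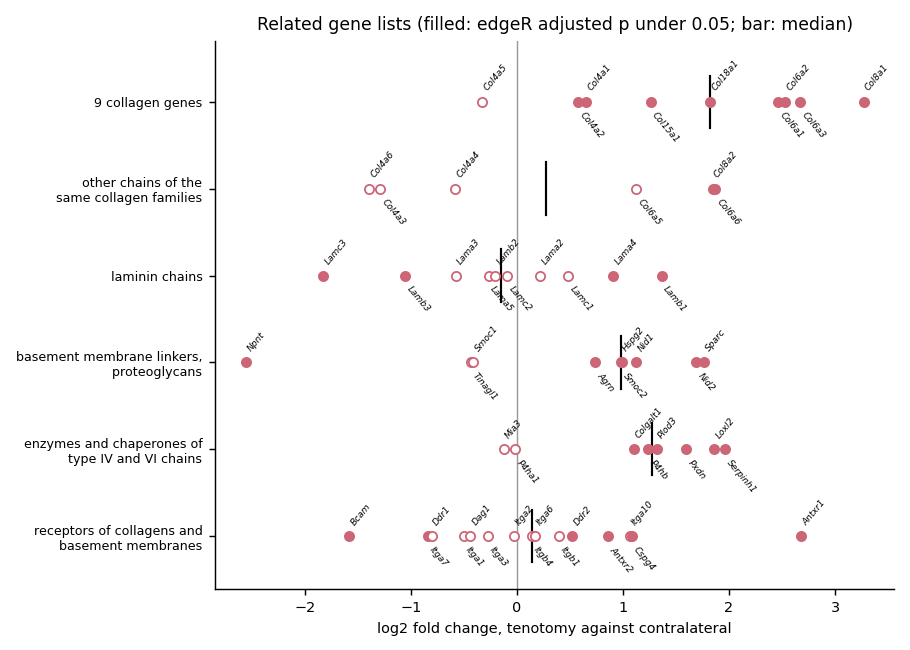
Log2 fold change between tenotomy and contralateral for the 9 collagen genes and 5 related lists, 1 point per gene, filled where the edgeR adjusted p was under 0.05, with a bar at each list's median. The medians are 1.82 for the 9 collagen genes, 1.28 for the enzymes, 0.98 for the linkers, 0.27 for the other chains, 0.14 for the receptors and -0.15 for the laminins.

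Markers of other cell types were read beside the collagen genes. The counts of calls in all marker lists stand beside 13.5% of all genes called higher at the tenotomy site and 15.3% called lower. Endothelial cells lie on a type IV basement membrane, and of 8 endothelial markers 0 rose and 1 fell at the tenotomy site (Kdr, log2 -0.74, edgeR adjusted p = 0.0483). Their summed level was 60.4 to 71.4 CPM in the contralateral libraries, 64.4 and 53.9 CPM at the tenotomy site and 71.6 and 69.6 CPM in the uninjured libraries. The sum depends on Vwf, which was at 4.95 to 12.7 CPM in the contralateral, 15.7 and 3.73 CPM in the tenotomy and 18.2 and 4.23 CPM in the uninjured libraries. Pecam1 was at 17.4 to 18.8 CPM in all 7 libraries. Cdh5 did not pass but was lower, at 14.2 to 16.4 CPM in the contralateral and 11.6 and 12.6 CPM in the tenotomy libraries. Of the 8 log2 differences 3 were positive, with a median of -0.06. Of 8 pericyte and smooth muscle markers, 1 rose (Pdgfrb, log2 0.92) and 4 fell, with sums of 231 to 243 CPM, 114 and 115 CPM, and 128 and 199 CPM. Of 5 fibroblast markers, 4 rose, with sums of 337 to 389 CPM, 2360 and 2348 CPM, and 2128 and 587 CPM, an order of libraries like that of the type VI genes. Among tendon markers 3 of 6 rose.

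The smaller marker lists moved as well. All 4 cartilage markers rose, with sums of 2.63 to 3.70 CPM, 223 and 227 CPM, and 69.7 and 4.78 CPM in the contralateral, tenotomy and uninjured libraries. All 5 macrophage and leukocyte markers rose, with sums of 10.8 to 15.1 CPM, 42.3 and 42.1 CPM, and 42.3 and 14.5 CPM, and so did all 3 cycling markers (1.67 to 1.99, 11.8 and 10.9, and 9.52 and 1.58 CPM). Of 4 adipocyte markers 2 fell (51.1 to 59.7, 20.3 and 21.4, and 16.3 and 57.2 CPM). Of 4 Schwann cell markers 2 rose, while their sum, carried by others, was 91.5 to 104 CPM, then 64.2 and 66.6, then 45.9 and 149 CPM. No marker of these lists was at 0 counts in any library. Their part in the collagen differences was not tested. With the listed muscle genes left out of the library totals, 8 of the 9 collagen genes were called as before, beside 29% of all genes. This changes the totals only and does not adjust for the differing muscle marker levels.

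**Figure D5:**
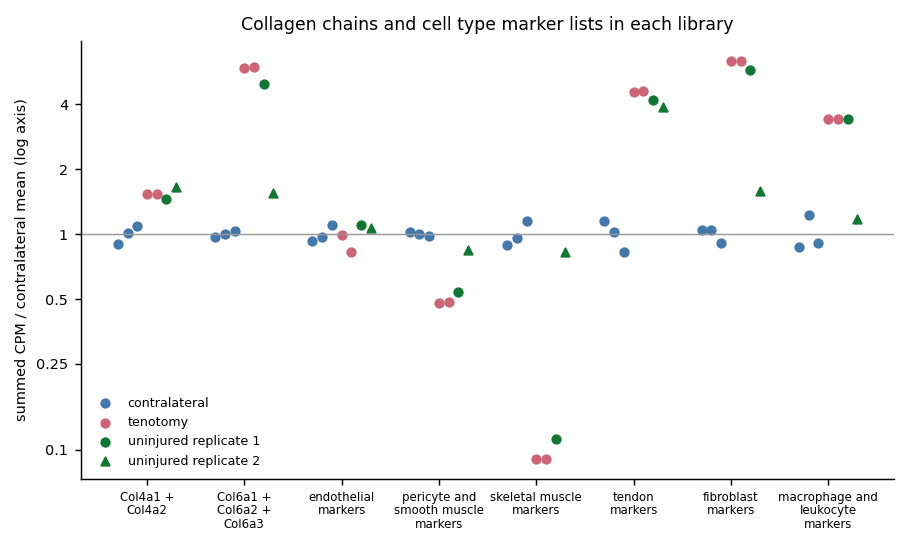
Summed CPM of the type IV pair, the 3 type VI chains and 6 marker lists in each library, divided by the contralateral mean, on a log axis. The endothelial sum stays near 1 in all libraries, although Vwf, a part of it, varied widely within groups. Muscle markers are low in the tenotomy libraries and uninjured replicate 1 (716, 718 and 891 CPM). The type VI chains and fibroblast markers are high in those same 3 libraries.

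The genes most like Col4a1 and Col6a1 were listed by Pearson correlation of log2 CPM over the 7 libraries among 2075 genes with a mean log2 CPM of at least 3, as a description. For Col4a1 they were Myo1c (r = 0.980), the laminin chain gene Lamc1 (0.975), Cd93 (0.957), Plxnd1 (0.952) and Epb41l2 (0.944), and 4 genes exceeded 0.95. Lamc1 itself was at 34.0 to 36.4 CPM in the contralateral libraries, 49.7 and 49.6 CPM at the tenotomy site and 43.1 and 49.9 CPM in the uninjured libraries (log2 0.48, edgeR adjusted p = 0.0591). For Col6a1 they were Antxr1 (0.9997), Grb10, Igf1, Zfc3h1 and Col11a1 (0.998 to 0.999), and 313 genes exceeded 0.95. Col4a1 and Col6a1 correlated with each other at 0.735.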

How the data were processed

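Each library has 1 deposited table of 103639 transcripts, with columns for estimated counts and TPM per the file headers. Per the submitters' processing notes, FastQC 0.11.4 and kallisto were used, with a build named GRCh38, although the transcript IDs are those of mouse. Versions of kallisto and of the annotation are not given in the sources used here, and neither is strandedness. The authors' estimated counts are fractional and carry no normalization. Their deposited TPM are divided by effective transcript length. Trizol and column purification and a TruSeq kit were used, per the labels' protocols.

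IDs were matched without version to GENCODE M21 (101510 matched). Estimated counts were summed per gene and rounded. Genes were filtered with filterByExpr (minimum count 10), scaled by TMM and tested with edgeR 4.0.16 in 1 fit of 7 libraries with 3 group means (R 4.3.3, Benjamini-Hochberg threshold 0.05). The SE is the log2 fold change over the square root of F. Log2 CPM used a prior count of 2. Code was tested on simulated data. Text named all 9 genes and, per list, the 3 largest called rises and falls, and further list genes after their values were seen. The members and lists were chosen with earlier results of these data known. Alternatives used limma 3.58.1, DESeq2 1.42.0, other scalings and filters, length-scaled TPM and fewer libraries; long-transcript TPM was added after seeing the data. Col4a5 had the fewest counts of the 9, 58 to 93 per library.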

Additional observations from a re-analysis of the deposited data

How the results depend on the processing

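Between tenotomy and contralateral, the 9 genes kept their direction in every alternative. The number called was 5 against a 1.5-fold change, where Col4a1, Col4a2 and Col18a1 were lost, 6 without the filter and with length-scaled TPM, where Col4a1 and Col4a2 were lost, and 8 in the other fits of all libraries. Beside these stood 9.78%, 17.3% and 19.6% of all genes against a 1.5-fold change, without the filter and with length-scaled TPM. Leaving out 1 library gave 0 to 8, with 0 without any contralateral or tenotomy library, when edgeR called 0 genes in all. Over all genes, 4638 were called, against 7385 when only the groups compared were fitted, 1572 against a 1.5-fold change, and 0 to 7337 with 1 library left out. Upper quartile scaling moved the median of all genes to 0.12 and the split to 2667 higher and 2153 lower, from 2172 and 2466.

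Between tenotomy and uninjured, leaving out 1 library gave 0 to 7 genes called, beside 0.0% to 25.1% of all genes. The difference near 0 changed sign for Col4a1 with upper quartile scaling (0.031) and with title series as a covariate (0.112), and was -0.137 to 0.132 with 1 library left out. For Col4a2 it was 0.026, 0.062 and, with length-scaled TPM, 0.081, and -0.056 to 0.037 with 1 library left out. Between contralateral and uninjured, 5 genes were called without the filter (beside 1.16% of all genes), 7 with DESeq2 (3.49%) and 6 with title series as a covariate (15.4%), and 0 to 8 with 1 library left out (0.0% to 32.0%); Col18a1 ranged from -1.65 to 0.15. The causes were not tested. No paired analysis was possible because the labels give no replicate numbers shared between groups. Col4a5 had the fewest counts of the 9 genes, 58 to 93 per library.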
